A study of Mus musculus with 2 samples.

Results

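Replication-dependent histone genes are the 67 genes, of 32285 in the count tables, whose symbols begin with Hist1h, Hist2h, Hist3h or Hist4h. They encode linker histones H1 (6 genes) and the core histones H2A (18), H2B (18), H3 (12) and H4 (13). The UMIs were read in CD45-positive cells, that is leukocytes, sorted from subcutaneous B16F10 tumours, a transplantable mouse melanoma, by droplet single-cell RNA sequencing on the 10x Genomics platform. The labels give the wild-type genotype for both groups. In the control group the mice had received bone-marrow-derived macrophages without treatment, and in the IL4 group such macrophages treated with IL-4, a cytokine that drives alternative macrophage activation. The tumour line, the transfer of macrophages and the sort were shared by both groups. A protocol field names the IL-4 treatment for both libraries, and the grouping follows the treatment listed among the sample characteristics. There was 1 library per group, so no difference has a replicate check, no test was run, and every interval covers counting error only. Age and the number of animals per library are not given in the sources used here.

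During S phase a cell must package newly made DNA, and most of its histone protein comes from these clustered, nearly intronless genes. Their mRNAs are the main animal mRNAs without a poly(A) tail: they end a few bases after a conserved stem-loop that is bound by the protein SLBP, and they are degraded when replication stops. Some members are also made as longer, polyadenylated mRNAs in cells that do not replicate, and separate replication-independent genes, such as H3f3a and H2afz, supply histone variants throughout the cycle. Droplet libraries of this kind prime on poly(A), so the UMIs of a member depend on how its mRNA ends as well as on its amount. How much of each value the capture sets was not tested.

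The stem-loop is shown first because the members are set out below by how much annotated transcript follows it. A search of the longest coding transcript of each member for a 16-base hairpin that opens with GG, closes with CC, has a T-rich loop and keeps all 6 stem pairs found it in 45 of the 67 members. Over the whole annotation it was in 149 of 58797 coding transcripts, and 48 of these belonged to members. Capitals mark the 16 bases, and the flanks are those of the annotated transcript. The sequence shared by 25 members, of all families but H4, is shown in the member with most UMIs in dividing cells, in a linker histone and in a member with a long annotated end. The next 2 are forms held by 7 H4 members and by 6 members that include the H3 gene Hist1h3c.
Hist1h2ap: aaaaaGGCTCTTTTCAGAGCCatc
Hist1h1c: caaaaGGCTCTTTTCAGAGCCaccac
Hist1h2ac: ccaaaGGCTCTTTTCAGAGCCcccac
Hist1h4d: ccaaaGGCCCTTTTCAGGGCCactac
Hist1h3c: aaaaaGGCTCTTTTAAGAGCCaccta
The transcript of Hist1h2ap ends 3 bases after the stem-loop, while that of Hist1h1c goes on for 840 bases and that of Hist1h2ac for 2010 bases. The longest coding transcripts of Hist1h2bc, Hist2h2be and Hist1h1b hold no such stem-loop. Some annotated transcripts without one are short, such as those of Hist1h4k (312 bases), Hist1h2bl (381 bases) and Hist1h2an (393 bases). A transcript annotated only up to a point before the stem-loop cannot show it, so absence here is not absence from the gene. Of the members, 62 have a longest transcript of a single exon. The genes lie in clusters: 54 on chromosome 13 (between bases 21715763 and 23934851), 10 on chromosome 3 (96219865 to 96270132), 2 on chromosome 11 and 1, Hist4h4, on chromosome 6 (GRCm38, GENCODE M21).

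The promoters of 62 members matched RefSeq (GRCm38.p6), and 250 bases before the start were searched on both strands. The 4 words searched, none of which contains another, were CCAAT, then the TATA box as TATAAA, then the octamer as ATTTGCAT, and last the H1 box, which was read as AAACACA. The word CCAAT was in 51 of 62 member promoters (82.3%), against 33.8% of all 32851 promoters. It was in all H1, H2A and H2B promoters of the table, in 8 of 10 H3 promoters and in 3 of 12 H4 promoters. TATAAA was in 46.8% of member promoters and 12.4% of all. The octamer was in 13 member promoters, 7 of H2A and 6 of H2B genes, and in 1.6% of all promoters. Windows of some neighbouring H2A and H2B genes overlap on opposite strands, so a single site can count for both. The octamer of Hist1h2ae and Hist1h2bg is such a site. The counts are therefore of promoters and not of separate sites. AAACACA was in 5 of 6 H1 promoters and in 6.25% of all promoters. A match is a description of letters and not evidence of binding. Shown are the members whose dividing and non-dividing levels are compared most below, with the words in capitals on either strand.
Hist1h2ap (chr13:21833476-21833725, minus strand): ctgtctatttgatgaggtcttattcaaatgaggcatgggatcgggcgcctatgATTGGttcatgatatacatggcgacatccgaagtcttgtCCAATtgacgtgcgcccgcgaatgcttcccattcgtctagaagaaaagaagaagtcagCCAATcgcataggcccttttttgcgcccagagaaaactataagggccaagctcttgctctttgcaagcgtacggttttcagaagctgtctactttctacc
Hist1h2ae (chr13:23571221-23571470, minus strand): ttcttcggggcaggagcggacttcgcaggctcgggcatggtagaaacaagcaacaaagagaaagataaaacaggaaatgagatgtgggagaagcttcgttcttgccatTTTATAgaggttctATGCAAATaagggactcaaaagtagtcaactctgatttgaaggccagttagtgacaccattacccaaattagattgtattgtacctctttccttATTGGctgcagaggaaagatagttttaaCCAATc
Hist1h1b (chr13:21780626-21780875, minus strand): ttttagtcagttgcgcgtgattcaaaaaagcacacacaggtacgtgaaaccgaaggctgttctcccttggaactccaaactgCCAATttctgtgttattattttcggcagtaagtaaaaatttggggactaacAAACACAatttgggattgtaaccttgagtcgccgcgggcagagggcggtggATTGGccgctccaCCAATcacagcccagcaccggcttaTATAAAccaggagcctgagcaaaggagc
Hist1h1c (chr13:23738557-23738806, plus strand): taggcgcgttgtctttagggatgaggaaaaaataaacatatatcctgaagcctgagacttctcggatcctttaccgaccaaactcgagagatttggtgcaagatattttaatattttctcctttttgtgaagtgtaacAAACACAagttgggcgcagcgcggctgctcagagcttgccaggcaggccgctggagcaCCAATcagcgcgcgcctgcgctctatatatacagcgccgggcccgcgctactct

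Before the results, the libraries stood as follows. After filters 8937 of 8994 control and 13762 of 13873 IL4 barcodes were kept, with medians of 9207 and 8256.5 UMIs, and 23 barcode sequences occurred in both libraries. Member UMIs numbered 94134 and 131360, which is 0.0987% and 0.0989% of all. Dividing cells were those with at least 10 UMIs summed over Mki67, Top2a, Birc5 and Ube2c, and non-dividing cells those with 0. There were 293 control (3.28%) and 484 IL4 (3.52%) dividing cells, with 61 and 104 cells between 8 and 11 UMIs of these genes, next to the limit. Ptprc, which encodes CD45, stood at 741 and 692 CPM in dividing and non-dividing control cells and at 827 and 734 CPM in IL4 cells. CPM is the field's usual scaling of counts to the UMI total of a pool of cells. It is not scaled by gene length, so levels are compared within a member. Dividing cells were deeper, at medians of 25754 and 24098.5 UMIs against 8420 and 7451 in non-dividing cells. Of the dividing barcodes, 28.0% in the control library and 29.8% in the IL4 one passed both a lymphocyte and a myeloid marker gate and may hold 2 cells. The myeloid gates counted for this leave out those of monocytes and plasmacytoid dendritic cells, so such shares may miss barcodes of 2 cells. Doublets were not removed, since no caller was run. Barcodes with Xist and no Y-linked transcript, and barcodes with the reverse, occurred in both libraries. Among dividing cells with transcripts of 1 kind, 39.3% in the control library and 9.49% in the IL4 one were of the Y-linked kind.

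Histone genes were far more abundant in dividing cells. Their summed level was 3323 CPM in dividing and 772 CPM in non-dividing control cells, a fold of 4.30 (95% interval 4.24 to 4.37). The IL4 library gave 3650 and 706 CPM, which is 5.17-fold (5.11 to 5.23). In such sums, fewer cells with a transcript and less transcript per cell cannot be told apart. Cells with 1 to 9 UMIs of the 4 division genes lay at 755 and 731 CPM, near the non-dividing level. Dividing cells were 3.28% and 3.52% of cells and held 28.9% and 34.6% of all member UMIs. They were also deeper, at medians of 25754 and 24098.5 UMIs against 8420 and 7451 in non-dividing cells. A share of cells and a share of UMIs therefore cannot be set against each other as a fold, whereas CPM is scaled to the UMIs of each pool. Without barcodes that passed both gates the fold was 4.45 and 5.65. With dividing cells chosen by 10 gate UMIs per 10000, and the non-dividing cells as before, it was 5.35 and 6.57. Shallow cells have 0 gate UMIs more easily, and the part of depth in the fold was not tested. Among dividing cells the middle cell had 29.7 member UMIs per 10000 in the control library and 31.1 in the IL4 one. The spread was wide, from 5.42 at the 10th to 73.4 at the 90th percentile in the control, and from 6.36 to 78.4 in the IL4 library.

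Member by member, 62 had at least 20 UMIs over both pools in each library, and 55 of these were at least 1.5-fold higher in dividing cells in each library, on the CPM plus 1 scale. Over all genes 22.3% were higher by this measure in control cells and 21.5% in IL4 cells, and 12.7% and 12.6% were lower. No counted member was lower. The same 54 members were higher in both libraries. The median fold of counted members was 5.65 and 6.97, and 25 members in each library were at least 10-fold higher. Of the other 5 members, Hist1h2aa and Hist1h2ba had no UMI, and Hist1h1t, Hist2h2aa2 and Hist1h2bq had 1 to 5 UMIs over both libraries. Hist1h1t encodes the linker histone of the testis.

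**Figure D1:**
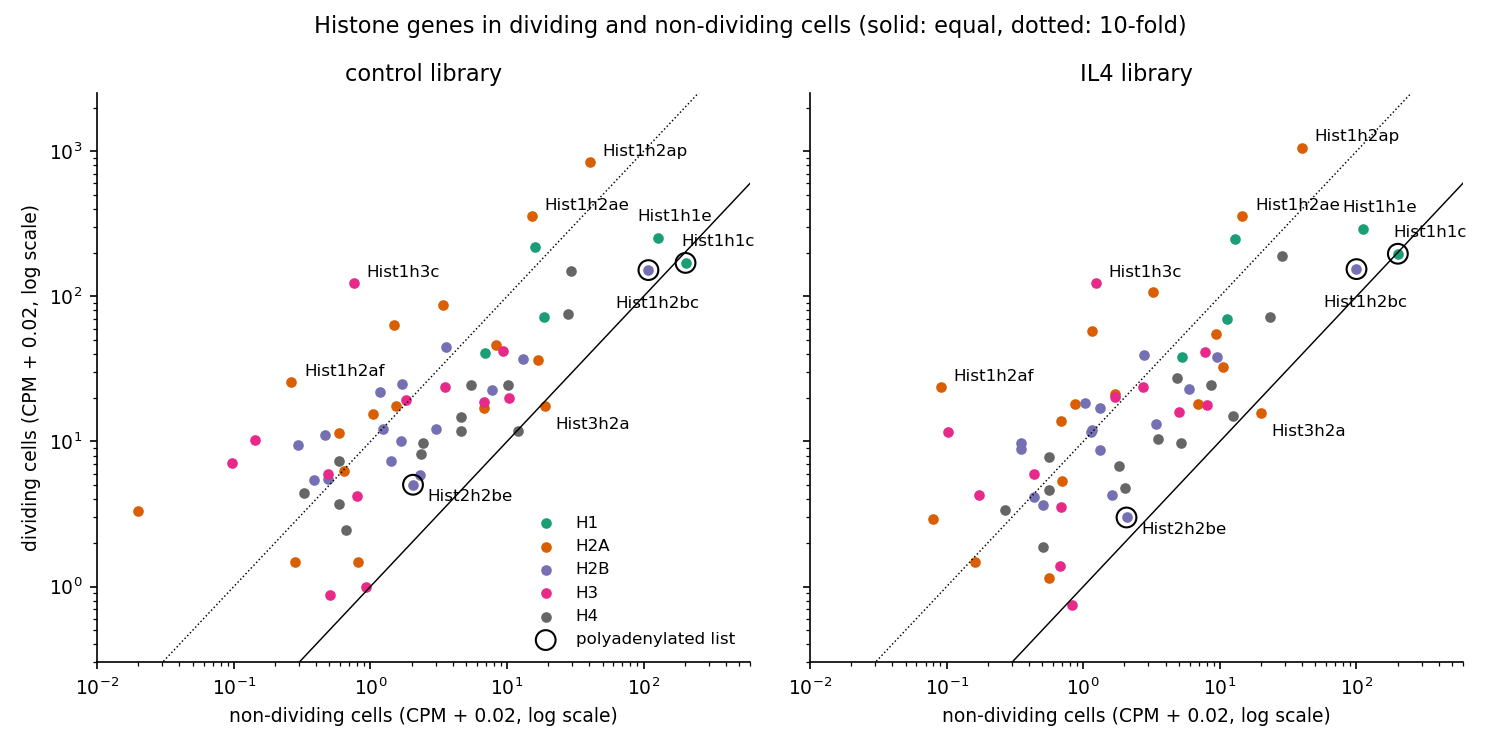
Level of each counted member in dividing (vertical) against non-dividing cells (horizontal), in CPM plus 0.02 on log axes, 1 panel per library. Points are genes coloured by family, circles mark the 3 polyadenylated members, and Hist1h1c lies below the line of equal levels in the control (0.84-fold) and next to it in the IL4 library (0.98-fold), while Hist1h2ap and Hist1h3c lie over the 10-fold line.

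The H2A gene Hist1h2ap carried the largest number of UMIs in dividing cells. In control cells it reached 846 CPM (6920 UMIs) with division and 40.6 CPM without, and in IL4 cells 1060.1 and 39.7 CPM. The folds were 20.8 (19.9 to 21.8) and 26.7 (25.7 to 27.7). It made up 25.5% of member UMIs of dividing control cells and 29.0% of those of dividing IL4 cells. Its annotated transcript holds a run of 12 A. Of its 60-base words, 92.9% occur in other genes, so some reads may not be told apart from those of near-identical copies. The level of Hist1h2ap is uncertain for that reason, and how such reads were counted was not examined. With cells thinned to 2000 UMIs, 63.8% of dividing control cells and 68.1% of dividing IL4 cells had a Hist1h2ap UMI. Non-dividing cells had one in 8.24% and 7.51% of cases. Non-dividing neutrophils, which are post-mitotic, had one in 3.83% of 235 control cells (1.77 to 7.15) and 4.72% of 106 IL4 cells (1.55 to 10.7). The IL4 interval covers the 7.51% of all non-dividing IL4 cells. Thinning left out 41 control and 22 IL4 neutrophils with too few UMIs.

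Hist1h2ae rose from 15.2 to 358 CPM in the control and from 14.6 to 358 CPM in the IL4 library, 23.6-fold and 24.5-fold. Hist1h2an stood at 87.1 against 3.39 CPM and at 107 against 3.23 CPM. Hist2h2ac, of the chromosome 3 cluster, was less separated, at 46.4 against 8.22 CPM and 54.6 against 9.38 CPM. Hist1h2ac was at 36.3 against 16.9 CPM in the control and 32.4 against 10.55 CPM in the IL4 library, a fold of 2.15 and 3.07. Hist3h2a, on chromosome 11, had about equal levels, 17.5 and 18.8 CPM in the control and 15.7 and 19.97 CPM in the IL4 library. Its span overlaps Trim17 on the same strand, so some reads of these genes may not be told apart. H2A members together were 46.8% of member UMIs in dividing and 15.1% in non-dividing control cells, and 49.1% and 15.6% in the IL4 library.

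The H3 and H4 genes spanned a wide range of folds. Hist1h3c was at 124 CPM in dividing and 0.73 CPM (48 UMIs) in non-dividing control cells, 169-fold (127 to 231). In the IL4 library it was at 123 and 1.22 CPM, 100.9-fold (82.6 to 124). After thinning, 19.1% of dividing control cells and 0.12% of non-dividing control cells had a Hist1h3c UMI, against 19.7% and 0.31% in the IL4 library. Hist1h3e was at 42.2 against 9.37 CPM and 41.4 against 7.79 CPM. Hist1h3a, at 20.04 against 10.3 CPM and 17.8 against 8.08 CPM, was near 2-fold in both. Hist1h4d, the H4 gene with the most UMIs, was 5.12-fold and 6.64-fold higher, at 150.2 against 29.3 CPM and 189.9 against 28.6 CPM. Hist1h4i stood at 76.1 against 27.8 CPM and 71.6 against 23.4 CPM. Hist1h4c stood at 24.3 against 10.1 CPM and 24.3 against 8.61 CPM. Hist4h4, alone on chromosome 6, was flat, at 11.9 against 12.1 CPM and 14.9 against 12.5 CPM.

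The linker histones differed among themselves. Hist1h1b, which encodes H1.5, rose from 15.9 to 220.3 CPM in the control and from 12.8 to 247 CPM in the IL4 library, 13.8-fold (12.8 to 14.96) and 19.2-fold (17.9 to 20.6). Hist1h1a, which encodes H1.1, was at 40.9 against 6.85 CPM and 38.4 against 5.3 CPM. Hist1h1d, which encodes H1.3, was 3.86-fold and 6.22-fold higher, at 71.9 against 18.6 CPM and 69.9 against 11.2 CPM. Hist1h1e, which encodes H1.4, was 1.99-fold and 2.62-fold higher, at 253 against 127 CPM and 292 against 112 CPM. Hist1h1c, which encodes H1.2, did not follow this order: it was at 170 CPM in dividing and 203 CPM in non-dividing control cells, a fold of 0.84 (0.79 to 0.89), while the IL4 library had 197 and 201 CPM, or 0.98-fold (0.94 to 1.02). With Hist1h1c and Hist1h1e high in both pools, H1 members were 22.7% of member UMIs in dividing and 48.0% in non-dividing control cells, and 23.1% and 48.4% in the IL4 library. The pools also differed in cell types. In the control, gated T cells were 68 of 293 dividing and 142 of 7067 non-dividing cells, and gated monocytes 7 and 1826. In the IL4 library, T cells were 124 of 484 and 239 of 10327. The part of cell types in the folds of single members was not tested.

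The 3 members taken as also made with a poly(A) tail were Hist1h1c, Hist1h2bc and Hist2h2be. Their summed level in dividing and non-dividing cells was 327 against 313 CPM in the control (1.04-fold, 1.002 to 1.09) and 354 against 303 CPM in the IL4 library (1.17-fold). Levels of Hist1h1c and Hist1h2bc also differ between cell types, as given below, and the part of cell types in these folds was not tested. The other 64 members stood at 2996 against 459 CPM and 3297 against 403 CPM, 6.53-fold and 8.18-fold. Hist1h2bc, an H2B gene whose annotated transcript has 2 exons and no stem-loop, was 1.399-fold (1.32 to 1.49) and 1.54-fold (1.46 to 1.62) higher in dividing cells, at 152 against 108 CPM and 154 against 100 CPM. Hist2h2be was low, at 5.01 against 2.03 CPM in the control and 2.97 against 2.05 CPM in the IL4 library. Hist1h2bc and Hist2h2be each passed 1.5-fold in 1 library, Hist1h2bc in IL4 and Hist2h2be in the control. In the control the summed fold of the 3 changed side under another scaling, at 0.95 with median-ratio scaling, and without the deepest 5% of barcodes it was 1.30. In the IL4 library it was 1.46 with dividing cells chosen per 10000 UMIs, 1.48 without the deepest barcodes and 2.02 in barcodes with Y-linked transcripts and no Xist. Hist1h2be, an H2B gene outside the list, was at 36.9 against 13.0 CPM and 38.4 against 9.44 CPM. Its span overlaps Hist1h1e on the same strand, so some reads of these genes may not be told apart.

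On the CPM plus 1 scale, the members within 1.5-fold in both libraries were Hist1h1c, Hist3h2a, Hist4h4, Hist2h3c1, Hist2h2ab and Hist2h3c2. The added 1 pulls the folds of members with low levels towards 1. Without it 57 counted members were at least 1.5-fold higher in each library, and Hist2h3c2 was at 1.75-fold in the control. The annotated transcript of Hist2h2ab holds no stem-loop, and that of Hist2h3c2 goes on for 377 bases after one. The annotated transcripts of Hist1h1c, Hist3h2a, Hist4h4 and Hist2h3c1 go on for more than 500 bases after the stem-loop, and all 60-base words of Hist2h3c1 occur in other genes. Set out by that length, the 21 counted members whose stem-loop lay within the last 100 bases had a median fold of 12.5 in the control library and 12.9 in the IL4 one, with ranges of 1.94 to 169 and 2.21 to 140.1. The 10 members with more than 100 and up to 500 further bases had medians of 3.49 and 3.89, and the 12 members with more than 500 further bases 2.46 and 3.004. In that last group folds ran from 0.84 to 6.02 in control cells and from 0.78 to 6.69 in IL4 cells, so the ranges of the groups overlapped. The 19 counted members with no stem-loop in the annotated transcript had medians of 11.6 and 10.53 and ranged from 1.399 to 105 in the control, where Hist1h2ah, with 27 UMIs in dividing and 0 in non-dividing cells, has no fold, and from 1.45 to 335 in the IL4 library. The group with no stem-loop includes short annotated transcripts, such as that of Hist1h4k (312 bases), that may stop before one. It is therefore not a class of genes without a stem-loop. The median folds are a description over annotated transcripts, many members share sequence, and which end was used in these cells was not measured. Of the members, 31 share over 50% of their 60-base words with other genes.

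**Figure D2:**
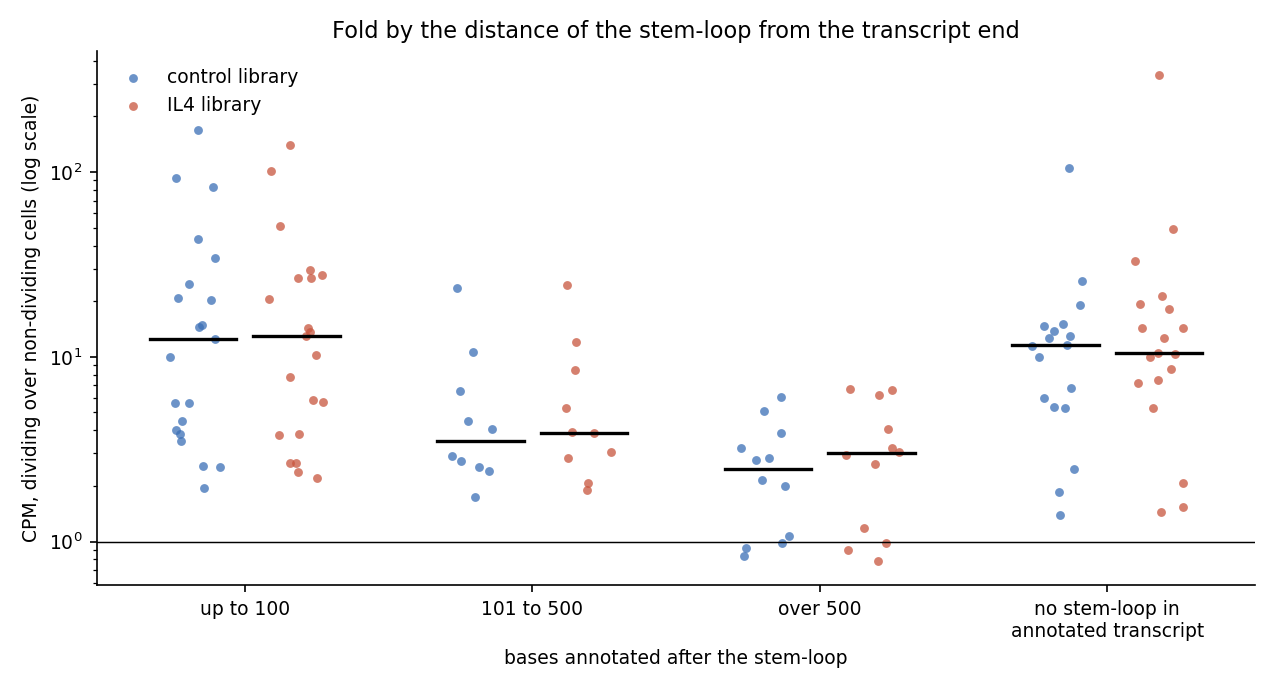
Fold of each counted member, CPM in dividing over non-dividing cells on a log axis, grouped by the number of bases annotated after the stem-loop. Points are members in the control or IL4 library, black bars are medians, and Hist1h2ah in the control, with 0 UMIs in non-dividing cells, is not drawn; the group with over 500 bases has the lowest medians, 2.46 and 3.004.

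Genes that act beside the histone genes were read from lists. Higher again means at least 1.5-fold on the CPM plus 1 scale, as held for 22.3% of all genes in control and 21.5% in IL4 cells. Of 11 histone genes listed as replication-independent, 5 were higher in dividing control cells and 4 of 10 counted in dividing IL4 cells. The gene H3f3b was lower in both, and H2afx had the largest folds of this list, 10.6 and 10.3. H3f3b and H3f3a, which encode the variant H3.3, stood at 3133 against 4958 CPM and 1420 against 1676 CPM in the control and at 3915 against 6110 CPM and 1296 against 1582 CPM in the IL4 library. H2afz, which encodes H2A.Z, was at 2016 against 636 CPM and 2126 against 766 CPM. H1f0, the linker histone of resting and differentiated cells, was at 46.8 against 47.6 CPM and 51.1 against 45.1 CPM. Of 14 genes of histone mRNA processing and transcription, 9 and 10 were higher, among them Slbp, whose product binds the stem-loop, at 126 against 54.9 CPM and 119.8 against 51.8 CPM. Casp8ap2, a factor of the histone locus body, was at 66.2 against 27.5 CPM and 79.0 against 28.9 CPM. Lsm10, of the same list, lay on the other side, at 0.78-fold in each library. All 10 chaperone genes were higher in control cells and 9 in IL4 cells, led in level by Nap1l1 at 422 against 161 CPM and 408 against 153 CPM. All 24 replication genes and all 14 further mitosis genes were higher in both, which follows in part from choosing cells by division genes.

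Dividing cells were then set out by the summed UMIs per 10000 of the 24 replication genes, in tertiles with common limits. Slbp rose over the tertiles from 54.6 to 108 to 201 CPM in the control and from 51.7 to 107 to 210 CPM in the IL4 library. Hist1h1b followed, at 141, 234 and 274 CPM and at 149, 274 and 318 CPM. Hist1h2ap was lowest in the lowest tertile of both libraries, at 554 then 1015 then 941 CPM and 815 then 1121 then 1245 CPM. Hist1h2bc ran the other way, from 225 to 145 to 97.2 CPM in the control and from 208 to 168 to 77.4 CPM in the IL4 library. Hist1h1c also fell, from 193 to 183 to 140 CPM and from 238 to 204 to 141 CPM. All members together were at 2563, 3882 and 3473 CPM and at 2943, 3917 and 4065 CPM. Set out by mitosis genes instead, all members rose from 1830 to 3313 to 4517 CPM and from 2393 to 3904 to 5260 CPM. In that order Hist1h2bc had 138, 128 and 182 CPM in control cells, then 90.6, 148 and 262 CPM in IL4 cells. The cells had been chosen by division genes, so the mitosis order is not separate from the gate. A stricter gate also gave a higher summed fold over non-dividing cells, 3.66 from 5 UMIs and 4.96 from 20 UMIs in the control. The part of depth, mixed barcodes and the gate in the mitosis order was not tested. Between 21.5% and 37.1% of the cells of a replication tertile passed both marker gates, and 42 control and 81 IL4 cells lay within 10% of a limit.

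**Figure D3:**
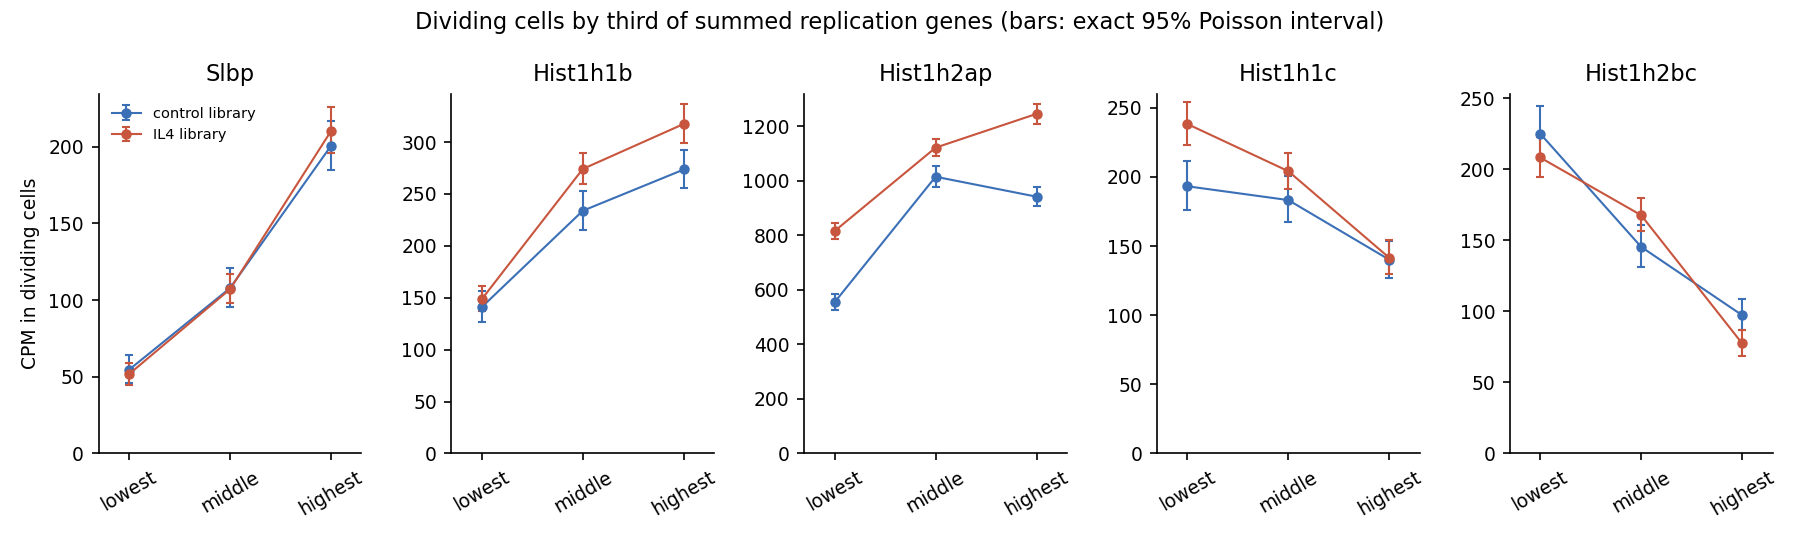
Level in dividing cells (CPM, linear axes from 0) of Slbp and 4 members, by tertile of the summed replication genes, with exact 95% Poisson intervals. Slbp and Hist1h1b are highest in the highest tertile of each library, and Hist1h1c and Hist1h2bc are lowest there.

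Leukocyte types were gated on marker UMIs, with no histone gene in any gate. Over all their cells, T cells had the highest summed level of the 8 types with at least 100 cells in each library, at 2061 CPM in the control and 2465 CPM in the IL4 library. The lowest was that of macrophages in the control (666 CPM) and those of neutrophils and mature migratory dendritic cells in the IL4 library (both 627 CPM). The ratio of highest to lowest type, 3.09 and 3.93 over all cells, was 1.66 and 1.39 in non-dividing cells of the same 8 types. The pair of types differed, since natural killer cells were highest among non-dividing cells. The lowest there were macrophages in the control and type 1 conventional dendritic cells in the IL4 library. In dividing cells the ratio was 1.504 over 4 types in the control and 1.55 over 6 types in the IL4 library. Those types leave out neutrophils and mature migratory dendritic cells, so these ratios are not over the same types. Among T cells, 68 of 308 in the control and 124 of 569 in the IL4 library were dividing, as were 35 of 2386 and 35 of 3472 macrophages. Within a type the division difference was of like size. It was 4.30-fold and 6.21-fold in T cells, 4.05-fold and 5.46-fold in macrophages, 4.37-fold and 5.29-fold in type 1 conventional dendritic cells, and 4.12-fold and 5.69-fold in type 2 conventional dendritic cells.

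Non-dividing B cells had the highest Hist1h1c level of the 10 gated types. They held 876 CPM (776 to 985, 279 UMIs in 51 cells) in the control and 604 CPM (456 to 784, 56 UMIs in 19 cells) in the IL4 library. Plasmacytoid dendritic cells followed, at 405 CPM (345 to 474) and 435 CPM (400 to 472). Among the types with at least 100 cells, mature migratory dendritic cells were highest, at 294 and 267 CPM, and type 2 conventional dendritic cells next, at 288 and 239.8 CPM. In the control these 2 values lie within each other's intervals. Hist1h1c was lowest in macrophages, at 137 CPM (132 to 142) and 149 CPM (144 to 153).

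Hist1h2bc was also highest in non-dividing B cells, at 625 CPM (541 to 718) and 334 CPM (227 to 474). It was lowest in macrophages, at 76.3 and 83.7 CPM. In plasmacytoid dendritic cells it was at 159 and 104 CPM, so these cells stood apart for Hist1h1c more than for Hist1h2bc, though the difference was not tested. Hist1h1e had another order: natural killer cells were high, at 205 and 146 CPM, and type 1 conventional dendritic cells in the control (56.7 CPM) and mature migratory dendritic cells in the IL4 library (53.7 CPM) low among the types with at least 100 cells. Hist1h2ap in non-dividing cells lay between 26.7 and 45.3 CPM in those types of the control and between 27.1 and 50.5 CPM in the IL4 library.

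**Figure D4:**
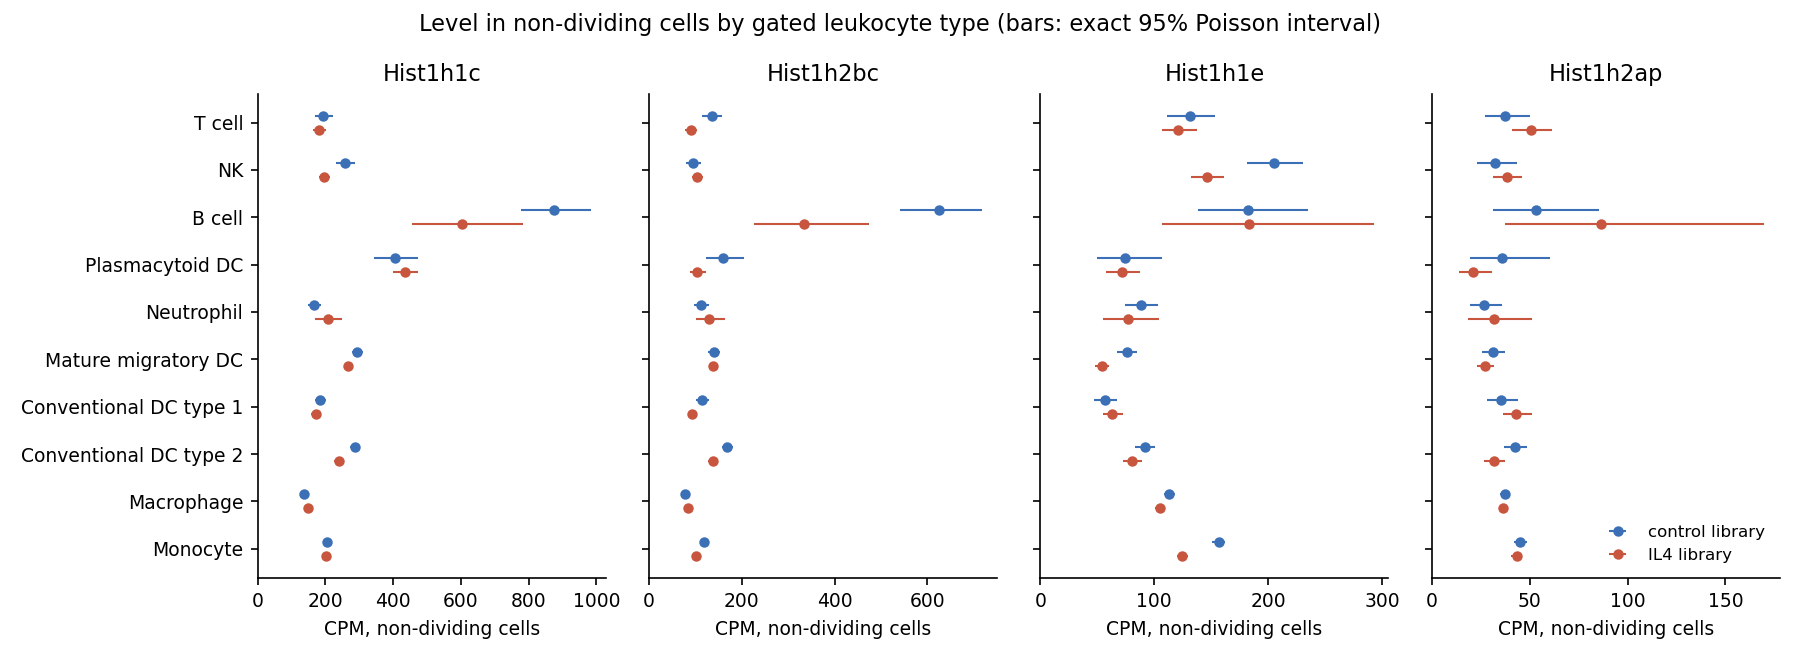
Level of 4 members in non-dividing cells (CPM, horizontal) by gated leukocyte type (vertical), with exact 95% Poisson intervals, for each library. Hist1h1c and Hist1h2bc are highest in B cells, which number 51 and 19, and lowest in macrophages in both libraries.

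Between the groups the summed level of histone genes over all cells was the same, 987 CPM in the control and 989 CPM in the IL4 library (1.001-fold, 0.99 to 1.01). In dividing cells it was higher in the IL4 library, 3650 against 3323 CPM (1.10-fold, 1.08 to 1.12). In non-dividing cells it was lower there, 706 against 772 CPM (0.91-fold, 0.90 to 0.93). This lower level was 0.99-fold (0.97 to 1.01) in barcodes of the Xist kind, 725 against 732 CPM, and 0.74-fold (0.72 to 0.77) in those of the Y-linked kind, 622 against 836 CPM. The dividing difference was not seen in barcodes of the Xist kind, where it was 3807 against 3801 CPM (1.002-fold, 0.98 to 1.02), and was larger in those of the Y-linked kind, 4957 CPM in 35 cells against 3443 CPM in 75 cells (1.44-fold, 1.38 to 1.499). It stood at 1.07 with control types weighted as in the IL4 library and at 1.05 without Hist1h2ap, which was 1.25-fold higher (1.22 to 1.29). Melanoma markers summed to 162 CPM in dividing IL4 cells and 4.28 CPM in dividing control cells. All 4 were detected in both, and 2 deep IL4 barcodes held 97.6% of their UMIs in dividing IL4 cells. Without barcodes carrying these markers the fold was 1.11. By type, dividing T cells were at 4997 against 3816 CPM (1.31-fold) and dividing macrophages, 35 in each library, at 3335 against 2538 CPM (1.31-fold). Dividing type 1 conventional dendritic cells were at 3221 against 3067 CPM (1.05-fold) and type 2 at 3919 against 3515 CPM (1.11-fold), while barcodes passing both gates gave 0.99-fold.

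Single members mostly stayed close between the groups. In dividing cells 1 of 61 counted members was at least 1.5-fold higher in the IL4 library and 3 were lower, beside 3.09% and 4.43% of all genes. The share of members higher, 1.64%, was below that of all genes, and these few calls are not read as a trait of the members. The higher one was the H2B gene Hist1h2br, at 11.6 against 7.33 CPM (1.58-fold, 1.16 to 2.17), of whose 60-base words 99.8% occur in other genes. The lower ones were Hist1h4m, an H4 gene, at 4.74 against 9.78 CPM, Hist1h3g, an H3 gene, at 4.26 against 7.09 CPM, and Hist2h2be at 2.97 against 5.01 CPM. Without barcodes passing both gates Hist1h4m was at 5.59 against 8.13 CPM, with an interval of the fold from 0.44 to 1.08. Hist1h3g was then at 5.07 against 5.998 CPM (0.85-fold, 0.51 to 1.402), so neither was 1.5-fold lower among those barcodes on the CPM plus 1 scale. Among the same barcodes Hist1h2br was at 2.14-fold (1.44 to 3.24) and Hist2h2be at 0.57-fold (0.33 to 0.97). By kind of barcode, Hist1h4m was at 0.40-fold (0.25 to 0.64) in the Xist kind and 1.07-fold (0.24 to 3.70) in the Y-linked kind. These 4 members had 37 to 144 UMIs in each pool.

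In non-dividing cells 2 of 59 counted members were at least 1.5-fold lower in the IL4 library and 0 higher, beside 1.16% and 1.23% of all genes. They were Hist1h1d, at 11.2 against 18.6 CPM (953 and 1221 UMIs), and Hist1h2ac, at 10.55 against 16.9 CPM (894 and 1105 UMIs). Both had transcripts annotated far beyond the stem-loop, by 4884 and 2010 bases. So had members that did not pass 1.5-fold here, such as Hist4h4 (2445 bases), Hist1h2be (1861 bases) and Hist1h1c (840 bases). A link of this length to the difference was not tested. Hist1h1d was lower in all 8 types with at least 100 cells, and in 5 of them its interval lay below 1. In macrophages it was at 8.65 against 14.7 CPM (0.59-fold, 0.49 to 0.70), in monocytes at 10.2 against 20.1 CPM (0.51-fold, 0.43 to 0.60), and in mature migratory dendritic cells at 5.73 against 15.6 CPM (0.37-fold, 0.23 to 0.57). In T cells, at 19.6 against 21.3 CPM, the interval ran from 0.55 to 1.59. Hist1h2ac was lower in 7 of 8 types, all but neutrophils, with intervals below 1 in 4. Hist1h1e, which did not pass 1.5-fold, was also lower in 7 types, with intervals below 1 in 4. Hist1h1c was lower in 6 types, Hist1h2bc in 5 and Hist1h2ap in 4. Hist1h1d and Hist1h2ac were lower in each kind of barcode, with intervals below 1, while that of the summed level in the Xist kind covered 1. Hist1h1d was at 0.67-fold (0.60 to 0.75) in the Xist kind and 0.48-fold (0.37 to 0.61) in the Y-linked kind. Hist1h2ac was at 0.66-fold (0.59 to 0.74) and 0.60-fold (0.46 to 0.76). The types and kinds are parts of the pool in which these 2 members were picked, so they are no separate check. In dividing cells neither passed 1.5-fold, with Hist1h1d at 69.9 against 71.9 CPM and Hist1h2ac at 32.4 against 36.3 CPM. In dividing barcodes of the Y-linked kind alone Hist1h2ac was at 60.8 against 37.5 CPM, from 45 and 74 UMIs. Some reads of Hist1h2ac may not be told apart from those of Gm24991, which overlaps it on the same strand.

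**Figure D5:**
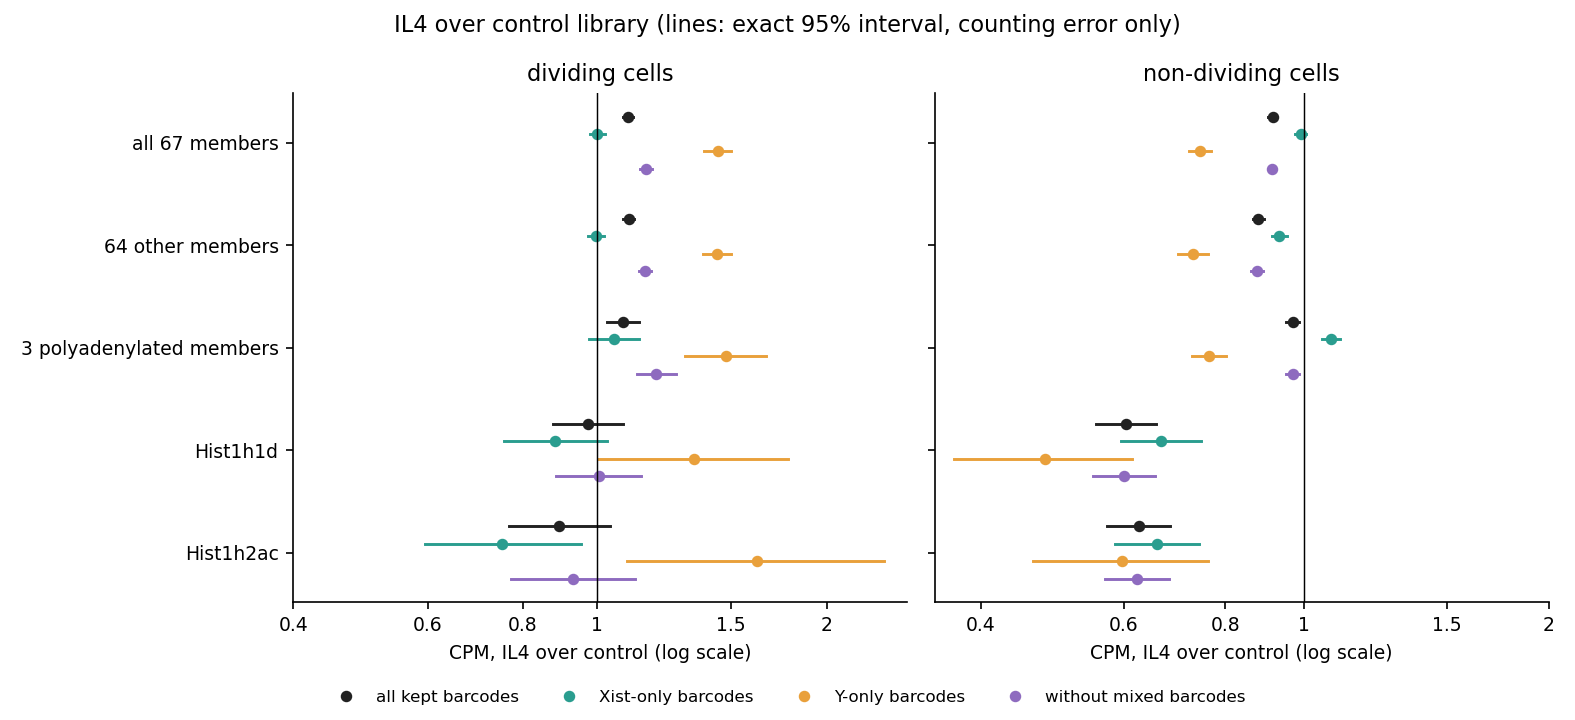
Fold of CPM, IL4 over control library, on a log axis with exact 95% intervals for counting error, for summed members and for Hist1h1d and Hist1h2ac, in dividing and non-dividing cells. Colours give the barcodes used: the summed folds move with them (1.002 in the Xist kind and 1.44 in the Y-linked kind for dividing cells), and the non-dividing folds of Hist1h1d and Hist1h2ac are below 1 in each.

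The polyadenylated members in non-dividing cells were at 303 CPM in the IL4 and 313 CPM in the control library (0.97-fold, 0.95 to 0.99). The direction differed between the kinds of barcode, 1.08-fold in the Xist kind and 0.76-fold in the Y-linked kind. Hist1h1c alone was at 201 against 203 CPM (0.99-fold, 0.97 to 1.01) and Hist1h2bc at 100 against 108 CPM (0.92-fold, 0.89 to 0.95).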

How the data were processed

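Single-cell UMI counts per gene and barcode were used as the authors deposited them, 1 filtered matrix per library; per the submitters' processing notes they were made with Cell Ranger 7.2.0 on mm10. Which annotation release they used is not stated here. No column was left unused. Kept barcodes had 500 UMIs or more, 250 genes or more and no more than 10% of UMIs from mitochondrial genes.

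Members were all symbols beginning with Hist1h, Hist2h, Hist3h or Hist4h. UMIs were summed over the cells of a pool and given as CPM, with exact 95% Poisson intervals, exact conditional binomial intervals for ratios and Clopper-Pearson intervals for shares. With 1 library per group there was no test, and the intervals leave out variation between animals. A call needed 20 UMIs over both pools and 1.5-fold on the CPM plus 1 scale, and was read beside the share of all genes called.

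Leukocyte types were gated on at least 2 markers and on 5 (T, NK, B and plasmacytoid dendritic cells), 10 (neutrophils and the other dendritic cells) or 20 marker UMIs (macrophages, monocytes). These minimums were chosen after the marker distributions were seen. Barcodes passing a lymphocyte and a myeloid gate were kept as a separate class, and no doublet caller was run. The types are rebuilt and not the authors'. Shares of cells with a UMI were compared after thinning to 2000 UMIs.

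The members and lists were chosen with earlier results of these data known. Named members were the 20 with most UMIs, the H1 genes, the 3 polyadenylated ones and up to 4 with the largest IL4 to control ratio among those with at least 50 UMIs in dividing cells. Other genes were up to 4 per list by level, with Slbp, H2afz and H1f0. Any further gene was named after its values were seen. Transcripts were GENCODE M21 and promoters RefSeq, both GRCm38. Alternatives varied the division limit, filters, scaling, barcodes and gates. The scripts were tested on simulated counts. Python 3.11.15 was used, with numpy 2.4.6, scipy 1.17.1, pandas 2.3.3 and matplotlib 3.10.9.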

Additional observations from a re-analysis of the deposited data

Results flagged for a closer look

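The direction of the IL4 to control difference was opposite in dividing and non-dividing cells, and the difference between the pools was not tested. For all members the fold was 1.10 in dividing and 0.915 in non-dividing cells. For the members outside the polyadenylated group it was 1.10 and 0.878, and for the 3 polyadenylated members 1.08 and 0.968. In barcodes with Xist and no Y-linked transcript the directions were not opposite beyond counting error: all members were at 1.002 (0.98 to 1.02) and 0.99 (0.97 to 1.01), and the polyadenylated members at 1.05 (0.98 to 1.13) and 1.08 (1.05 to 1.11). In the Y-linked kind all members were at 1.44 in 75 control and 35 IL4 dividing cells and at 0.745 in non-dividing cells.

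The polyadenylated members in non-dividing cells also differed in direction between types, which was not tested. The IL4 to control fold was 1.20 in neutrophils and 1.09 in macrophages. It was 0.822 in T cells, 0.853 in natural killer cells, 0.936 in mature migratory dendritic cells, 0.885 and 0.829 in type 1 and type 2 conventional dendritic cells, and 0.942 in monocytes.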

How the results depend on the processing

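The count of members higher in dividing cells ranged from 48 to 57 for control cells and from 38 to 57 for IL4 cells over 14 alternatives. Of the summed folds, the polyadenylated members' control fold of dividing over non-dividing cells and their IL4 to control fold lay on either side of 1 under different settings, and the cause of each shift was not tested. For the summed level, dividing over non-dividing, control and IL4 folds were 3.66 and 4.35 with division from 5 UMIs, 4.96 and 5.67 from 20 UMIs, 5.35 and 6.57 from 10 UMIs per 10000, 5.53 and 6.48 without the deepest 5% of barcodes, 3.90 and 4.64 with median-ratio scaling, 4.43 and 5.36 as a mean over cells, 5.19 and 5.25 in barcodes of the Xist kind, 4.12 and 7.97 in the Y-linked kind, and 4.45 and 5.65 without barcodes passing both gates. Chosen after seeing the data, leaving out Hist1h2ap gave 3.39 and 3.89, and leaving out barcodes with melanoma markers gave 5.24 in the IL4 library. In the same order of settings, the polyadenylated members' IL4 fold was 1.08, 1.25, 1.46, 1.48, 1.05, 1.27, 1.11, 2.02 and 1.35. In the control it was 1.10 per 10000 UMIs, 1.30 without the deepest barcodes, 0.946 with median-ratio scaling, 1.12 as a mean over cells, 1.14 in the Xist kind and 1.09 without barcodes passing both gates. The IL4 to control fold in dividing cells was 1.05 from 20 UMIs, 1.12 per 10000 UMIs, 1.07 without the deepest barcodes, 1.12 with median-ratio scaling, 1.15 as a mean over cells, 1.002 in the Xist kind, 1.44 in the Y-linked kind and 1.16 without barcodes passing both gates. After seeing the data, it was 1.05 without Hist1h2ap and 1.07 with control types weighted as in the IL4 library. For polyadenylated members in non-dividing cells it was 0.994 with median-ratio scaling, 0.996 as a mean over cells, 1.08 in the Xist kind and 0.764 in the Y-linked kind, so its direction depends on the barcodes. The highest over the lowest type was 3.41 in the control with doubled gate minimums, 1.66 and 1.39 in non-dividing cells alone and, over fewer types, 1.504 and 1.55 in dividing cells alone. No paired analysis was possible because each group has 1 library and no result comes from a test. Depth limits the members with few UMIs in non-dividing cells, whose folds have wide intervals.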
